A study of Mus musculus with 21 samples.

Results

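Card9 and 9 genes of the C-type lectin signalling route that ends in it were described in colon of germ-free (GF) male mice on the C57BL/6J background. The members were the receptors Clec7a, Clec4n, Clec4e and Clec4d, the receptor chain Fcer1g, the kinases Syk and Prkcd, the adaptor Card9, and Bcl10 and Malt1, which form a complex with Card9. All non-control probes named for these 10 genes were taken, which gave 21 of 56605 probes on the arrays of day 0 and 12 of 55681 probes on the arrays of day 7. All 10 genes had a probe on both array designs. All 21 member probes passed the filter on dim probes at day 0, and 11 of 12 passed at day 7, the exception being the probe of Clec4e.

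The study asked how loss of Card9 changes the colon in the absence of a microbiota, before and during colitis induced by dextran sulfate sodium (DSS), a polymer that injures the colon epithelium when given in drinking water. GF Card9-/- and GF WT mice were compared at day 0, before DSS, with 7 and 6 arrays, and at day 7, after 7 days of 2% DSS, with 4 and 4 arrays. Every mouse was thus germ-free and male, RNA came from whole colon tissue, and each array held the RNA of 1 sample. The labels give neither the part of Card9 that was removed nor whether replicates 2 and 2.1 of GF Card9-/- at day 7 were separate animals, so the p-values measure the spread between samples.

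C-type lectin receptors of myeloid cells bind sugars and lipids of fungi and mycobacteria. Clec7a, known as dectin-1, carries its own signalling motif, whereas Clec4n (dectin-2), Clec4e (Mincle) and Clec4d (MCL) signal through the paired chain encoded by Fcer1g. The kinase Syk is recruited to the phosphorylated motif, protein kinase C delta (Prkcd) then phosphorylates Card9, and Card9 assembles with Bcl10 and the protease Malt1 to activate NF-kB. Card9 and the receptors are mainly genes of macrophages, dendritic cells and neutrophils, while Syk, Prkcd, Bcl10 and Malt1 are also used by other cells, including lymphocytes and epithelium.

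The 3 Card9 probes are printed because the reading of every label rests on them. Each is a 60-base oligonucleotide against transcript NM_001037747, and capitals mark the 43 bases that the day 7 probe shares with one of the day 0 probes.
A_66_P135237, day 0: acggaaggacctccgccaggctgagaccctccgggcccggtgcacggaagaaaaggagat
A_55_P1986722, day 7: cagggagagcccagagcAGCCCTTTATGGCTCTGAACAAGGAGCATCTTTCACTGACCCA
A_66_P128849, day 0: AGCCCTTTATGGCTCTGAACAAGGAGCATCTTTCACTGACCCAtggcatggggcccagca
They begin at transcript bases 911, 1373 and 1390. On build mm9 they lie on the minus strand of chromosome 2, A_66_P135237 from 26212384 to 26212744, A_55_P1986722 from 26208462 to 26208521, and A_66_P128849 from 26208066 to 26208504. The placements of A_66_P135237 and A_66_P128849 span 361 and 439 bases for 60 bases of probe, so each crosses a splice junction. The placement of A_55_P1986722 spans 60 bases and lies within 1 exon. The day 7 reading of Card9 therefore comes from nearly the same stretch of transcript as the brighter day 0 reading.

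Card9 signal was present in the arrays labelled GF Card9-/- and at background in the arrays labelled GF WT, with 1 exception at day 7. Because the signal of the deleted gene goes against the labels, groups are called by label throughout. Every sign is relative to the label and would turn with respect to genotype if the genotypes were the reverse of the labels, which was not tested. Every difference is the arrays labelled GF Card9-/- minus the arrays labelled GF WT. No sample was moved to another group. Values are log2 of the processed signal after quantile normalization within a day.

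At day 0, probe A_66_P128849 read from 8.71 to 9.24, with a median of 8.88, in the 7 GF Card9-/- labelled arrays, and from 2.30 to 2.33, with a median of 2.32, in the 6 GF WT labelled arrays. Before normalization these were processed signals of 408 to 565 and of 3.70 to 6.85. The groups did not overlap, and the probe was well above background, by the scanner software's own flag, on all 7 arrays of the first label and on none of the second. The log2 difference was 6.58 (SE 0.084, limma adjusted p = 2.92e-13). With each dim array set to the lowest signal it measured as well above background, Card9 was higher by at least 21.5-fold under the GF Card9-/- label. Folds written "at least" are computed this way throughout. The difference was smaller with other background handling, at 3.098 after normexp correction and 3.95 in the authors' table, and limma called it in both. Both are below the bound, 4.43 on the log2 scale, which holds only for the processed signal used here.

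The upstream probe A_66_P135237 showed the same pattern at lower signal. It read from 6.75 to 7.51 under the GF Card9-/- label (median 7.09) and from 2.85 to 3.77 under the GF WT label (median 3.36), again with no overlap and again not well above background on any GF WT array. The log2 difference was 3.80 (SE 0.16, limma adjusted p = 4.11e-07), or at least 6.23-fold. It was 1.28 after normexp correction and 1.80 in the authors' table, both called by limma and both below that bound. These probes had the smallest and next smallest p-values of the 47410 probes tested at day 0. Of those probes 12 (0.0253%) passed an adjusted p of 0.05, 7 of them (0.0148%) higher under the GF Card9-/- label, and the 2 Card9 probes were the only ones of the 21 member probes among them. The exact two-sided permutation test of 7 against 6 arrays gave p = 5.83e-04 for each Card9 probe, the smallest value it can give. At an unadjusted p under 0.05 limma called 5.84% of probes, and no brightest partner probe.

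The Card9 contrast of day 0 was present on every slide and in both scan sessions. Each of the 4 slides carried both labels, and the within-slide log2 difference of A_66_P128849 lay between 6.42 and 6.91. It was 6.73 and 6.47 in the 2 scan sessions.

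At day 7, probe A_55_P1986722 read 7.995, 8.57, 7.93 and 8.02 in replicates 2, 2.1, 4 and 6 labelled GF Card9-/-. It read 7.85 in GF WT replicate 1 but 2.39, 2.41 and 2.38 in GF WT replicates 4, 5 and 6. GF WT replicate 1 thus had the Card9 signal of the other label, below the lowest of those arrays by less than their SD of 0.29, while the other 3 GF WT labelled arrays were not well above background. With all 8 arrays the log2 difference was 4.37 (SE 1.24), with a 95% interval of 1.48 to 7.26 and a limma adjusted p of 0.913. No probe of the 44632 tested passed the adjusted threshold at day 7 by limma (0%), and 1511 (3.39%) had an unadjusted p under 0.05. Without GF WT replicate 1, the 4 GF Card9-/- labelled arrays averaged 8.13 ± 0.29 (SD) and the 3 remaining GF WT labelled arrays averaged 2.40 ± 0.014 (SD). Card9 was then higher by at least 15.4-fold under the GF Card9-/- label, given as a description with no test since that array was set aside for its Card9 value. With all 8 arrays and dim values raised to the lowest measured signal, the log2 difference was 3.02. On the 2 slides that held both labels, the difference was 5.61 and 6.17.

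**Figure D1:**
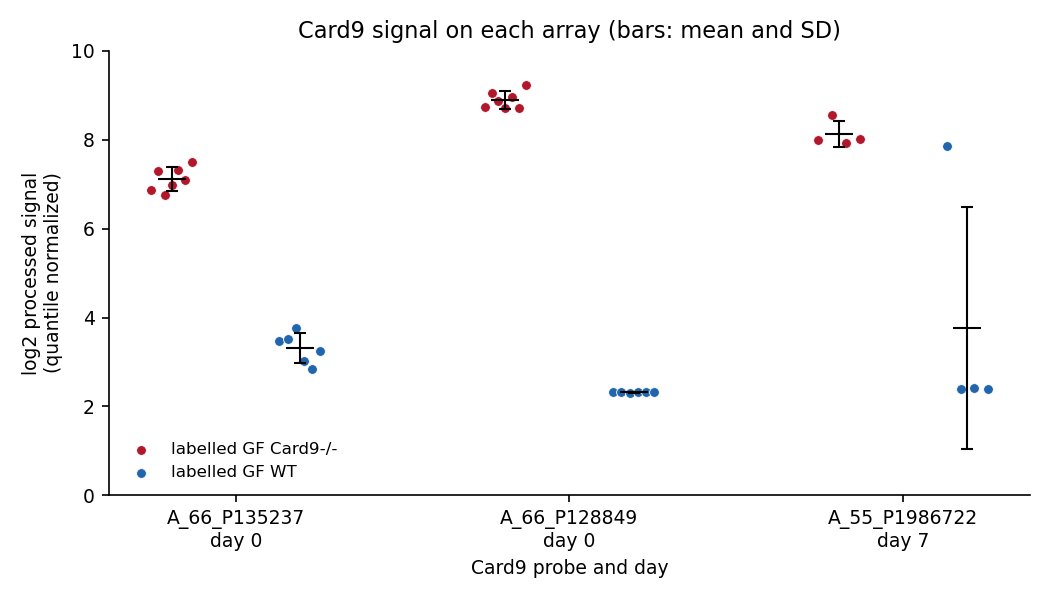
Log2 processed signal (vertical axis) of each Card9 probe on each array, by day and label. Points are arrays and bars are the mean and SD. The GF Card9-/- labelled arrays sit above those labelled GF WT for both day 0 probes, and at day 7 the point of GF WT replicate 1, at 7.85, sits with the GF Card9-/- labelled arrays.

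No partner of Card9 differed between the labels at an adjusted p of 0.05, at either day. Of the 9 partners, 4 were higher under the GF Card9-/- label at day 0, with a median log2 difference of -0.04, where 12105 of 21736 named genes and 57% of all probes were higher and the median of the genes was 0.01. At day 7, 6 of the 8 tested partners were higher, with a median of 0.13, beside 9762 of 19718 named genes and a median of -0.0017. Every partner overlapped between the labels at both days. Of all tested probes, 0.458% did not overlap at day 0 and 2.12% at day 7. In whole tissue, fewer cells of a type and less RNA per cell cannot be told apart.

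**Figure D2:**
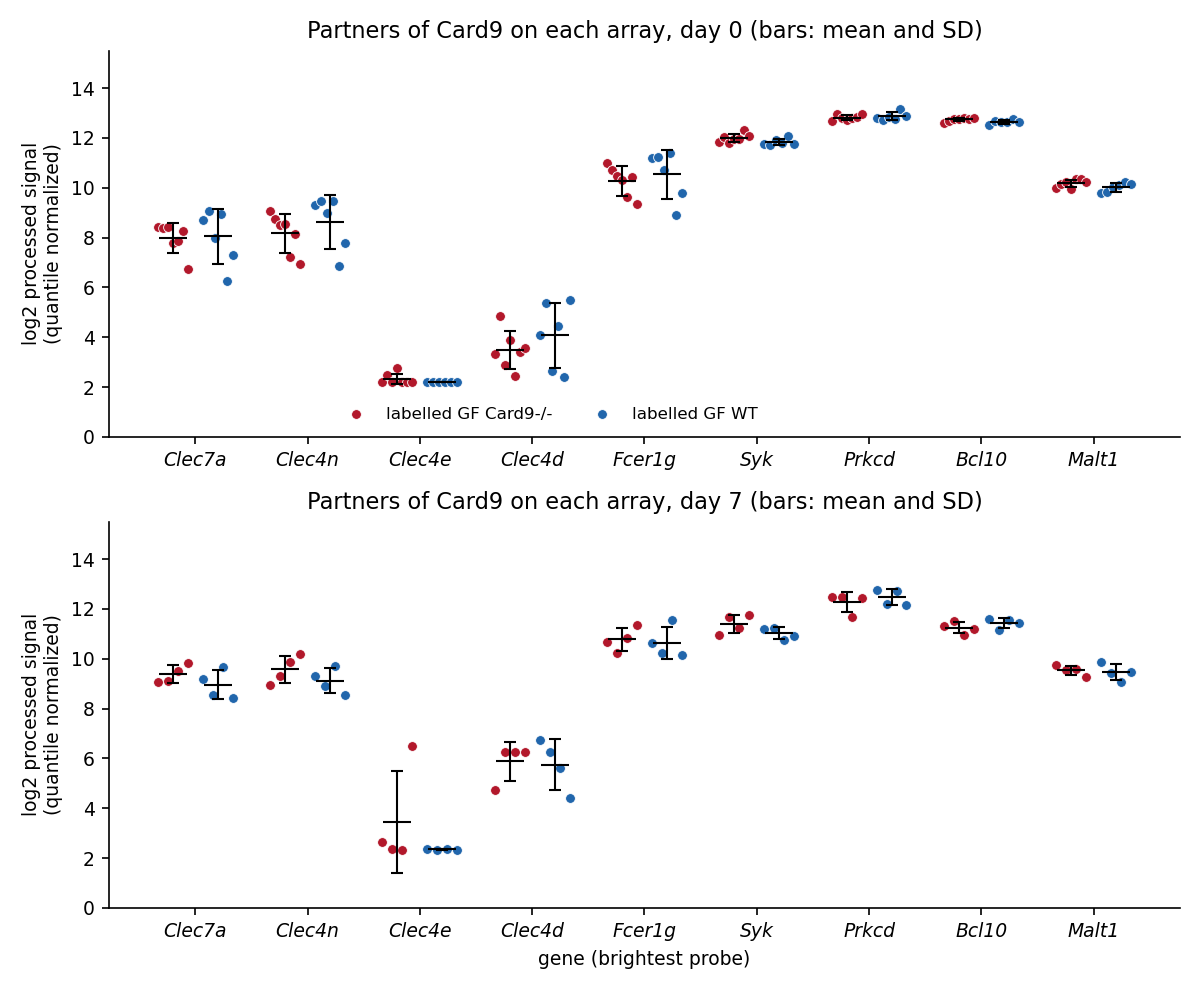
Log2 processed signal (vertical axis) of the brightest probe of each partner on each array, day 0 above and day 7 below. Points are arrays and bars are the mean and SD of a label. The labels overlap for each of the 9 genes on both days, and at day 0 the points of Clec7a, Clec4n and Fcer1g spread more widely within a label than those of Syk, Prkcd, Bcl10 and Malt1.

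Among the receptors, Clec7a was measured at base 2087 of NM_020008 (chromosome 6, 129411739 to 129411798, mm9). At day 0 it read from 6.76 to 8.41 under the GF Card9-/- label (median 8.27) and from 6.24 to 9.07 under the GF WT label (median 8.35). The lowest array labelled GF Card9-/-, replicate 7, was far from the rest of its label, the GF WT labelled arrays were spread over their whole range, and the ranges overlapped. The difference was -0.06 with a 95% interval of -1.06 to 0.94 (limma adjusted p = 0.992). At day 7, Clec7a read 9.06, 9.12, 9.52 and 9.84 in replicates 2, 2.1, 4 and 6 labelled GF Card9-/- and 9.18, 8.55, 9.68 and 8.42 in replicates 1, 4, 5 and 6 labelled GF WT. Only 2 GF WT arrays were below the lowest array of the other label, and the difference of 0.43 had an interval of -0.32 to 1.18 (limma adjusted p = 0.913). A further Clec7a probe on the day 0 arrays, at base 165, was well above background on 1 of 13 arrays.

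Clec4n, Clec4d and Clec4e are neighbours on chromosome 6, with probes at 123196969 to 123197028, 123224788 to 123224847 and 123232878 to 123232937. Clec4n read from 6.94 to 9.05 (median 8.50) under the GF Card9-/- label at day 0 and from 6.86 to 9.46 (median 9.14) under the GF WT label. The ranges overlapped, and 4 of 6 GF WT arrays were at 8.97 or above. The difference was -0.47 (interval -1.54 to 0.60, limma adjusted p = 0.912). At day 7 the sign was the opposite. Clec4n then read 8.95, 9.30, 9.85 and 10.19 under the GF Card9-/- label and 9.31, 8.89, 9.71 and 8.55 under the GF WT label, in the order of replicates given for Clec7a. The difference was 0.46 (interval -0.35 to 1.27, limma adjusted p = 0.913), and the change of the difference between the days, 0.93 (SE 0.70), did not pass the test (limma adjusted p = 0.819).

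Clec4d, the MCL gene, was near the limit of detection before DSS. At day 0 it read from 2.43 to 4.87 under the GF Card9-/- label and from 2.39 to 5.50 under the GF WT label, and only 1 of 7 and 2 of 6 arrays passed the well above background flag. The difference of -0.59 had an interval of -1.80 to 0.62. At day 7 Clec4d was well above background on all 8 arrays, at 4.72, 6.27, 6.26 and 6.25 under the GF Card9-/- label and at 6.73, 6.27, 5.62 and 4.39 under the GF WT label. The lowest array of each label, GF Card9-/- replicate 2 and GF WT replicate 6, lay on the same slide. The difference was 0.12 (interval -1.23 to 1.48).

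Clec4e, the Mincle gene, was not well above background on any of the 13 arrays of day 0, where all values lay between 2.20 and 2.75. At day 7 only 1 of 8 arrays was well above background, GF Card9-/- replicate 6, at 6.51, while the other 7 lay between 2.32 and 2.64. Clec4e did not pass the detection filter at day 7 and was left out of limma's test. Its difference of 1.11 came from that array (exact permutation p = 0.314).

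Fcer1g encodes the common gamma chain that passes the signal of dectin-2, Mincle, MCL and several Fc receptors to Syk. Its probe lies on chromosome 1 at 173159794 to 173159853. At day 0 it read from 9.36 to 11.01 (median 10.42) under the GF Card9-/- label and from 8.90 to 11.40 (median 10.95) under the GF WT label. The wider range of GF WT enclosed the other, and the difference was -0.26 (interval -1.18 to 0.65, limma adjusted p = 0.941). At day 7 it read 10.67, 10.22, 10.84 and 11.37 against 10.64, 10.23, 11.53 and 10.13, a difference of 0.14 (interval -0.72 to 1.0, limma adjusted p = 0.973).

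The brightest probes of the intracellular members had SDs of 0.068 to 0.18 between the arrays of a label at day 0, beside 0.59 to 1.11 for Clec7a, Clec4n and Fcer1g. Dimmer probes of the same genes had SDs up to 0.38 among those well above background on all 13 arrays. Syk, the kinase that reads the phosphorylated receptor motif, had its brightest probe on chromosome 13 at 52744088 to 52744147. It read from 11.81 to 12.30 (median 11.95) under the GF Card9-/- label at day 0 and from 11.73 to 12.08 (median 11.78) under the GF WT label. The medians differed by less than the range of either label, and the difference was 0.16 (interval -0.03 to 0.34, limma adjusted p = 0.912). At day 7 Syk read 10.95, 11.66, 11.24 and 11.74 against 11.21, 11.24, 10.75 and 10.91. In 2 GF Card9-/- labelled arrays, replicates 2.1 and 6, it was above every GF WT array, and the difference of 0.37 had an interval of -0.13 to 0.87 (limma adjusted p = 0.913). These 2 arrays were also the ones with high pancreatic enzyme genes at day 7, and without them the difference was 0.06 (SE 0.20). The other Syk probe of day 7, A_55_P2172867, differed by 1.30 (limma adjusted p = 0.913) but passed the well above background flag on 0 arrays. The 3 other Syk probes of day 0 differed by 0.02 to 0.19.

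Prkcd, the kinase that phosphorylates Card9, was measured on chromosome 14 at 31409035 to 31409094. It read from 12.69 to 12.95 at day 0 under the GF Card9-/- label and from 12.73 to 13.17 under the GF WT label, with medians of 12.82 and 12.83. The labels were nearly superimposed, and the difference was -0.04 (interval -0.21 to 0.12, limma adjusted p = 0.947). At day 7 it read 12.48, 12.49, 11.68 and 12.45 against 12.76, 12.20, 12.74 and 12.16, a difference of -0.19 (interval -0.76 to 0.39) in which GF Card9-/- replicate 4 was the low array. Its other probes differed by -0.08 and -0.06 at day 0 and by -0.10 at day 7.

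Bcl10, the bridge between Card9 and Malt1, was read by different probes at the 2 days, on chromosome 3 at 145597064 to 145597123 and at 145596846 to 145596905. At day 0 it read from 12.62 to 12.82 (median 12.77) under the GF Card9-/- label and from 12.52 to 12.77 (median 12.63) under the GF WT label. The difference of 0.10 was small but was large beside its SE of 0.050, with an interval of -0.01 to 0.21, an exact permutation p of 0.0414 and a limma adjusted p of 0.896 over all probes. The other Bcl10 probe of day 0 differed by -0.03. At day 7 the difference had the opposite sign, -0.20 (interval -0.57 to 0.18), with 11.32, 11.50, 10.96 and 11.18 against 11.60, 11.16, 11.57 and 11.42.

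Malt1, the protease of the complex, read from 9.97 to 10.33 (median 10.23) under the GF Card9-/- label at day 0 and from 9.80 to 10.25 (median 10.05) under the GF WT label (chromosome 18, 65638340 to 65638399). The difference was 0.15 (interval -0.04 to 0.35, limma adjusted p = 0.912), and its 3 other probes differed by -0.03 to 0.22. At day 7 it read 9.73, 9.54, 9.58 and 9.28 against 9.88, 9.41, 9.08 and 9.46, a difference of 0.07 (interval -0.37 to 0.52). For the brightest probes of Syk, Prkcd, Bcl10 and Malt1 the intervals of day 0 reached from -0.21 to 0.35 on the log2 scale, and for those of Clec7a, Clec4n, Clec4d and Fcer1g from -1.80 to 0.94. The dimmer probes of Syk, Prkcd, Bcl10 and Malt1 that were well above background on all 13 arrays had wider intervals, from -0.37 to 0.58.

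**Figure D3:**
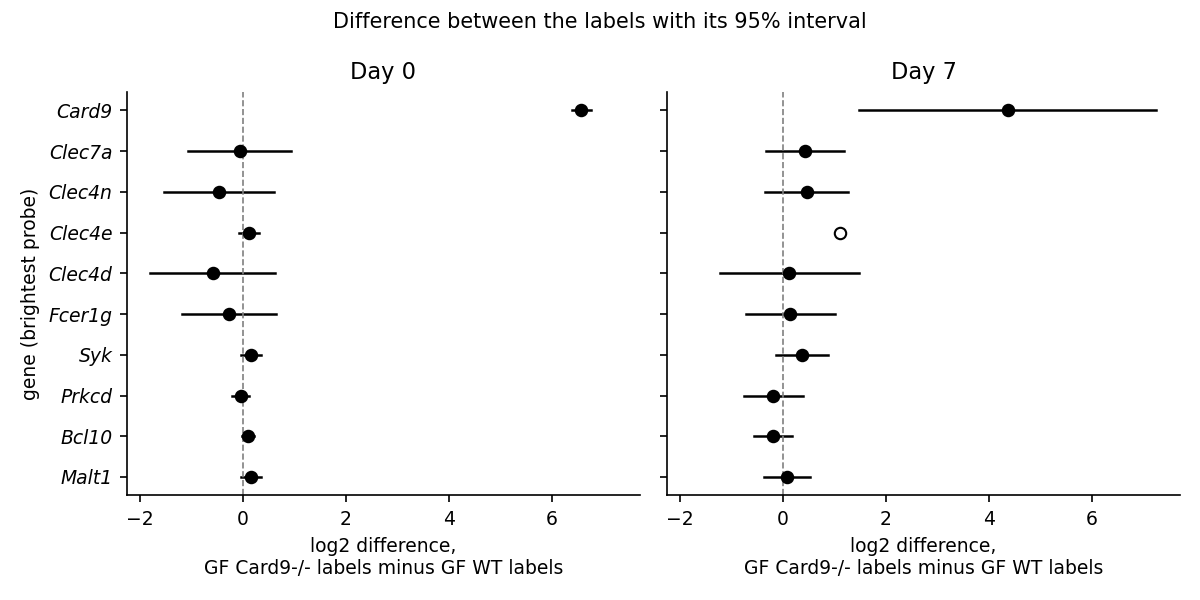
Log2 difference between the labels (horizontal axis, GF Card9-/- labels minus GF WT labels) with its 95% interval from limma, for the brightest probe of each of the 10 genes, at day 0 (left) and day 7 (right). The interval excludes 0 for Card9 and for no partner, and the open point of Clec4e at day 7 has no interval because the detection filter left it out of limma's test.

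Leaving out GF WT replicate 1, the array with Card9 signal, called no partner at day 7 (limma adjusted p of 0.938 or above). The differences were then 0.50 for Clec7a, 0.52 for Clec4n, 0.45 for Clec4d, 0.14 for Fcer1g, 0.43 for Syk, -0.09 for Prkcd, -0.14 for Bcl10 and 0.21 for Malt1. Clec4d, Prkcd and Malt1 thus moved by over 1.5 times, all within the intervals given above. The change of the difference between the days was tested for the 23627 probes that the designs share and that were detected at each day, and limma called 0 of them (0%), while 1688 (7.14%) had an unadjusted p under 0.05. Clec7a, Clec4n, Clec4d, Fcer1g, Syk, Prkcd and Malt1 were in that test by their brightest probes, with changes between -0.14 and 0.93. Card9 and Bcl10 could not be included, since their probes differed between the designs. Because day and array design changed together, levels of the 2 days are not compared.

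The partners were next set against the Card9 signal itself. Within the 7 GF Card9-/- labelled arrays at day 0, which are the only group of 6 or more arrays with Card9 above background, A_66_P128849 varied only from 8.71 to 9.24. Pearson's r with the 9 partners ran from -0.65 to 0.81, and none passed after adjustment over the 9 relations (exact permutation tests). Prkcd had the highest, with r = 0.81 (exact permutation p = 0.032, adjusted p = 0.286) and Spearman's rho of 0.61 (exact permutation p = 0.167, adjusted p = 0.992). Without the 2 arrays farthest from the median of Card9 the r of Prkcd was 0.42, and with slide means removed it was 0.39. Leaving out those arrays also narrows the range of Card9, so the lower r does not show what the relation rested on. Of the receptors and their chain, r was -0.64 for Clec7a, -0.65 for Clec4n and -0.64 for Fcer1g (adjusted exact permutation p = 0.290 for each), with rho between -0.32 and -0.21. It was -0.21 for Clec4e and 0.17 for Clec4d, which were mostly at background. Bcl10 and Malt1 had r of 0.34 and 0.39, which turned to -0.19 and -0.45 with slide means removed. No slide held more than 2 of these arrays, so values with slide means removed rest on few comparisons. GF Card9-/- replicate 7, which had the highest Card9 signal and the lowest Clec7a, Clec4n and Fcer1g of these arrays, was also the only array of day 0 with high pancreatic enzyme genes. Without it r was 0.11 for Clec7a, -0.29 for Clec4n, -0.26 for Fcer1g, 0.73 for Prkcd and -0.00496 for Bcl10.

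The other Card9 probe, A_66_P135237, had r = 0.78 with A_66_P128849 in the same 7 arrays (rho 0.61), 0.36 without the 2 farthest arrays and 0.58 without replicate 7. The readings of the same transcript by its 2 probes thus followed each other about as closely as Prkcd followed A_66_P128849. The 5 named genes whose level followed A_66_P128849 most closely over these 7 arrays, among 21719 genes, were Gm31630, Spaca4, Aspscr1, Rlf and Sytl2, with r between 0.97 and 0.98, as a description with no test. Among the same genes Prkcd ranked at 256, Malt1 at 4899 and Bcl10 at 5816, while Clec4n ranked at 20787.

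Clec4n, Fcer1g and Clec7a moved together from array to array, and they moved with the macrophage markers. The score was the mean over 14 macrophage markers, among them Adgre1, Csf1r, Cx3cr1 and C1qa, of each gene's log2 signal minus its mean over the arrays of the day. No member is on that list. At day 0 it ran from -1.10 to 0.48 under the GF Card9-/- label and from -1.14 to 0.87 under the GF WT label, so the labels overlapped. Of the 14 markers 1 was higher under the GF Card9-/- label and none passed the adjusted threshold, with a median difference of -0.32. Siglec1 was well above background on 4 of the 13 arrays of day 0, and at day 7 Cd163 was so on none and Siglec1 on 1 of 8.

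Over the 13 arrays of day 0, Clec4n had r = 0.98 with the macrophage score (rho 0.99, permutation p = 1e-05, the smallest the test can give, adjusted p = 8.5e-05 for r and for rho). Fcer1g had r = 0.97 (rho 0.98) with the same p-values, and Clec7a had r = 0.85 (rho 0.86, permutation p = 2.1e-04, adjusted p = 0.0012 for r and 0.0024 for rho). Adjustment was over the 17 relations of the 2 days. Without the 2 arrays farthest from the median score these r were 0.98, 0.98 and 0.91, and with slide means removed 0.98, 0.97 and 0.91. In the 7 GF Card9-/- labelled arrays they were 0.95, 0.92 and 0.61, and in the 6 labelled GF WT 0.997, 0.998 and 0.991. Within the 2 scan sessions r of Clec4n was 0.98 and 0.99, that of Fcer1g 0.99 and 0.96, and that of Clec7a 0.97 and 0.70. Clec4n and Fcer1g had r = 0.99 with each other once label means were removed.

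The brightest probes of the intracellular members ran the other way at day 0. Malt1 had r = -0.77 with the macrophage score (rho -0.81, adjusted permutation p = 0.0084 and 0.0061), Bcl10 had r = -0.70 (rho -0.76, adjusted permutation p = 0.0236 and 0.0118), and Prkcd had r = -0.66 (rho -0.64, adjusted permutation p = 0.0236 and 0.0411). Each was negative within each label, with Prkcd at -0.43 under the GF Card9-/- label and -0.91 under the GF WT label, and each was negative within each scan session. Without the 2 farthest arrays they were -0.72, -0.63 and -0.62, and with slide means removed -0.70, -0.68 and -0.70. Syk had r = -0.49 (adjusted permutation p = 0.142) and rho -0.64 (adjusted permutation p = 0.0411). Clec4d and Clec4e, which were mostly at background, had r of 0.49 and 0.09. Dimmer probes were not tested against the score, and the direction differed among those of Malt1. GF WT replicates 4 and 5 had scores of 0.87 and -1.14. The brightest Malt1 probe read 10.10 and 10.25 there. A_55_P2738152 read 7.25 and 6.66, A_52_P472888 read 7.17 and 7.14, and A_55_P2845797 read 6.54 and 6.71.

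**Figure D4:**
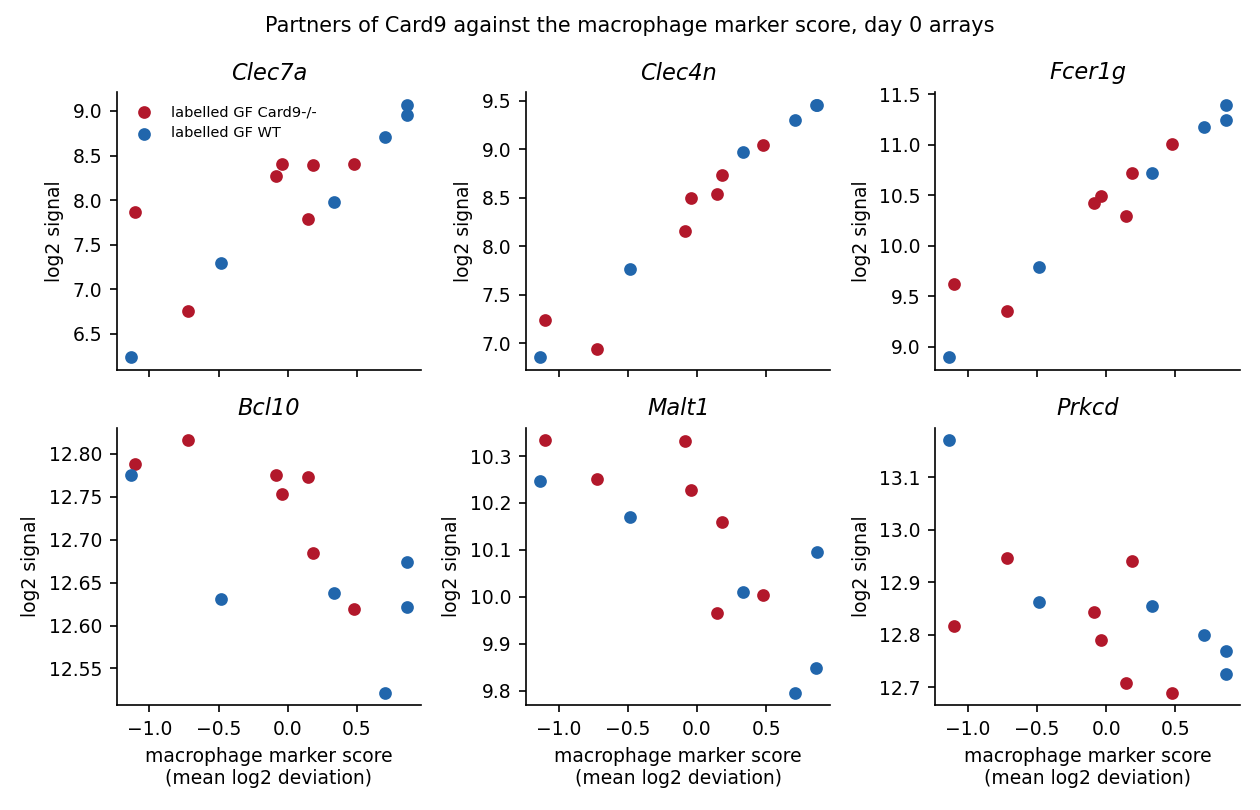
Log2 signal of the brightest probe of 6 partners (vertical axes, with a separate scale for each gene) against the macrophage marker score (horizontal axes, mean log2 deviation of 14 markers) on the 13 arrays of day 0, coloured by label. Clec7a, Clec4n and Fcer1g rise along the score with r of 0.85, 0.98 and 0.97, while Bcl10, Malt1 and Prkcd fall with r of -0.70, -0.77 and -0.66 over a much narrower range of signal.

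Other tissue markers moved with the macrophage score at day 0. Over the 13 arrays r was 0.79 with the smooth muscle markers (adjusted permutation p = 0.027) and 0.75 with the dendritic cell markers (adjusted permutation p = 0.029). It was 0.65 with the neutrophil markers (adjusted permutation p = 0.083), -0.58 with the colon epithelium markers (adjusted permutation p = 0.136) and 0.56 with the B cell markers (adjusted permutation p = 0.147), none of which passed. Without the 2 farthest arrays these 5 were 0.74, 0.73, 0.48, -0.76 and 0.55, and with slide means removed 0.81, 0.83, 0.58, -0.73 and 0.67. At day 7 the dendritic cell markers followed the macrophage score (r = 0.85, rho 0.98, exact permutation test, adjusted p = 0.029 and 0.0071). The relations to smooth muscle at day 0 and to dendritic cells at both days were the only ones to pass of 18, which were chosen after the data were seen. The part of the tissue layers in each sample in the partner signals was not tested. Card9 had no positive relation to the score. In the 7 GF Card9-/- labelled arrays its r was -0.58 (rho -0.25, exact permutation p = 0.172 and 0.595), -0.82 without the 2 arrays farthest from the median of Card9 and -0.41 without replicate 7.

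At day 7, with 8 arrays, the macrophage score ran from -0.22 to 0.49 under the GF Card9-/- label and from -0.43 to 0.75 under the GF WT label, and Fcer1g and Clec7a again followed it. Fcer1g had r = 0.95 (rho 0.90, exact permutation test, adjusted p = 0.0034 and 0.0129) and Clec7a r = 0.83 (rho 0.81, exact permutation test, adjusted p = 0.0236 and 0.0411). Clec4n had r = 0.70 (rho 0.71), which did not pass (exact permutation test, adjusted p = 0.102 and 0.098). Without the 2 farthest arrays r was 0.79, 0.72 and 0.44. Malt1, Bcl10 and Prkcd, at -0.54, 0.22 and 0.53, had no relation that passed, and Malt1 turned to 0.87 without the 2 farthest arrays. Only 2 slides of day 7 held more than 1 array, so slide means could not be removed in a useful way.

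The rest of the pathway was described from gene lists, and no gene of any list passed the adjusted threshold at either day. Among 19 further C-type lectin and Fc receptors, 4 were higher under the GF Card9-/- label at day 0, with a median of -0.27, and 16 of 18 tested at day 7, with a median of 0.31. At day 0 the largest differences were those of Clec4a3, a lectin receptor of myeloid cells (-0.80, SE 0.67), and Fcgr1, the high-affinity IgG receptor (-0.68, SE 0.59). At day 7 they were those of Cd209d, a SIGN-related lectin (1.22, SE 0.48, limma adjusted p = 0.913), and Clec10a, a galactose-binding lectin of macrophages (0.82, SE 0.44).

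Of 22 genes that act between receptor and Card9, 9 were higher at day 0 and 15 of 21 at day 7, with medians of -0.01 and 0.13. The largest differences at day 0 were those of Rasgrp1 (0.45) and the kinase Fyn (0.22). At day 7 Ubash3b, a phosphatase acting on Syk, differed by 0.41. Of 12 genes of the CARD scaffold family and of regulators of Card9, 7 and 5 were higher. Nod2, the muramyl dipeptide sensor, differed by -0.50 (SE 0.19) at day 0 and by 0.67 (SE 0.42) at day 7, and its kinase Ripk2 by 0.49 at day 0. Card14 differed by -0.29 at day 7.

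Of 25 genes of NF-kB and MAP kinase signalling 14 were higher at day 0 and 9 of 24 tested at day 7, with medians of 0.01 and -0.07. At an unadjusted p under 0.05 limma called 3 of them at day 0, beside 5.84% of all probes, and 0 at day 7. Tab1, a partner of the kinase TAK1, read 12.05 to 12.27 under the GF Card9-/- label at day 0 and 12.34 to 12.57 under the GF WT label. These ranges did not overlap, and the difference was -0.27 (SE 0.051, limma adjusted p = 0.154). The RNase Zc3h12a differed by 0.28 at day 0, and Ikbkg and Mapk8 by -0.43 and -0.35 at day 7. The 8 neighbours of Card9 on chromosome 2 had medians of 0.06 and 0.11. Among them Notch1 differed by 0.46 (SE 0.20) and 0.56 (SE 0.36), Snapc4 by 0.19 at day 0 and Entr1 by 0.26 at day 7. None of the neighbours had the difference of several log2 units seen in Card9.

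Genes induced by Card9 signalling in myeloid cells were mostly dim. Of 16 cytokine, chemokine and enzyme genes 10 were tested at day 0, 4 of them higher under the GF Card9-/- label with a median of -0.05. The largest differences were those of Il12b (0.45), which was well above background on 2 GF Card9-/- labelled arrays alone, and Ptgs2 (-0.34). At day 7, 11 of 12 tested genes were higher, with a median of 0.47, beside 50.4% of all probes tested. At an unadjusted p under 0.05 limma called 2 of the 12, beside 3.39% of all probes. Only 5 of the 16 genes were well above background on more than 50% of the arrays of day 7. The filter admits a gene detected under either label alone, so a dim gene could enter through the label where it was high. The count of directions is thus a description only. Ccl3, a neutrophil and monocyte chemoattractant, read from 4.12 to 5.76 under the GF Card9-/- label and from 2.55 to 3.07 under the GF WT label, with means of 4.80 and 2.71. It was well above background on 2 arrays of the first label and on none of the second (limma adjusted p = 0.913). The other arrays of the first label were dim as well, so no lower bound on the fold of Ccl3 is given. Cxcl1, the neutrophil chemokine, was well above background on 1 array, with means of 4.05 and 2.60, and its bound gives no fold.

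Markers of other cell types were also read by label. At day 7 all 9 tested neutrophil markers were higher under the GF Card9-/- label, and the neutrophil score, built like the macrophage score, ran from 0.00 to 0.67 there and from -0.51 to -0.09 under the GF WT label. At day 0, 4 of 8 tested neutrophil markers were higher and the scores overlapped, from -0.59 to 0.54 against -0.85 to 0.59. Most of the list was dim, with 4 of 11 markers well above background on more than 50% of the arrays at day 7 and 3 of 11 at day 0. Of the T cell markers 6 of 7 were higher at day 0 and 7 of 7 at day 7, with median differences of 0.21 and 0.75. The T cell scores overlapped at both days, from -0.33 to 1.08 against -0.43 to -0.18 at day 7. The dendritic cell, B cell and smooth muscle scores overlapped between the labels at both days as well. Mast cells use the Fcer1g chain in their IgE receptor. Their markers were higher under the GF Card9-/- label for 7 of 8 genes at day 0 and for 6 of 6 at day 7, with median differences of 0.94 and 1.32. The mast cell score ran from -0.23 to 1.35 against -0.84 to -0.35 at day 0 and from 0.17 to 0.96 against -1.11 to -0.09 at day 7, without overlap at either day. No marker of these lists passed the adjusted threshold. As for the genes induced by Card9 signalling, a dim marker could enter these counts through the label where it was high. At an unadjusted p under 0.05 limma called 5 of 8 mast cell markers at day 0 and 3 of 6 at day 7, 0 of 8 and 3 of 9 neutrophil markers, and 0 of 7 and 2 of 7 T cell markers, beside 5.84% and 3.39% of all probes. The part of these cells in the differences of the partners was not tested.

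All 10 colon epithelium markers, the defining genes of the labelled tissue, were well above background on more than 50% of the arrays at both days. Pancreatic enzyme genes stood out in 3 arrays labelled GF Card9-/-, with scores of 10.5 in replicate 7 at day 0 and of 8.14 and 4.16 in replicates 6 and 2.1 at day 7. The score was -0.28 or below in every other array. The part of the pancreatic genes in the partner and Card9 values of these arrays was not tested. Between 54.5% and 64.9% of spots were well above background at day 0 and between 42.2% and 57.1% at day 7, and no spot was saturated. The number of arrays limits the precision.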

How the data were processed

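Colon RNA was hybridised to 1-colour Agilent arrays, of design 074809 at day 0 (4 slides, 2 scan sessions) and design 028005 at day 7 (6 slides, 1 session). The authors extracted spots with Agilent Feature Extraction 10.7.3.1, per the labels, and the deposited processed intensity values are background-subtracted, linear and unnormalized. A deposited p-value per spot compares its signal with background. The authors' own table holds deposited log2 values after quantile normalization and was used as an alternative only, since its signal column is not given in the sources used here. Feature positions are on mm9, and no annotation of that build was used, so exon and UTR assignments are not given.

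Log2 intensity was quantile normalized within each day, control and outlier spots were left out, and spots of a probe were averaged. Subtracted signals near background spread widely on the log2 scale, so differences of dim probes depend on the background correction. Probes detected (p-value below 0.05) on 60% or more of a label's arrays were tested. Labels were compared with limma 3.58.1 (lmFit, eBayes) in R 4.3.3 and Benjamini-Hochberg adjustment over all tested probes, and an exact two-sided permutation test was run beside it. Relations across 13 arrays used a permutation test and those across 7 or 8 arrays an exact permutation test, two-sided. Probes were named through their RefSeq accession (29032 of 47410 at day 0, 24249 of 44632 at day 7) or else by the file's name (8537 and 2902), and the rest have no name here. Of the pathway lists, genes past the adjusted threshold (none) and the 2 largest differences per list and day are named, except for 1 result that is not reported here. Marker lists are given by their score and counts. The fits were tested on simulated data. The members and gene lists were chosen with earlier results of these data known. Alternatives were 75th percentile scaling, normexp background correction (offset 50), the authors' table, dim values raised to the lowest measured signal, slide, scan session or replicate number as a block, other detection filters, the mean over a gene's probes, leaving out each array and leaving out the arrays high in pancreatic genes.

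Replicates 2 and 2.1 differed by an SD of 0.852 in log2 signal over probes, close to the median of 0.907 for other same-label pairs, and were counted as 2 samples.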

Additional observations from a re-analysis of the deposited data

Results flagged for a closer look

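Of 42 groups of values examined, 7 had an array that stood apart from the rest of its label by Dixon's test, which chance gives in about 1 in 20 groups. The highest Card9 signals of both labels at day 7 were among them, at 8.57 in GF Card9-/- replicate 2.1, whose nearest neighbour was at 8.02 and which was high in pancreatic enzyme genes (score 4.16), and at 7.85 in GF WT replicate 1, whose nearest neighbour was at 2.41. Clec4e read 6.51 in GF Card9-/- replicate 6 at day 7, against 2.64 in the next array, and replicate 6 had the highest pancreatic score of that day (8.14). Clec4d read 4.72 in GF Card9-/- replicate 2 at day 7, against 6.25 to 6.27 in the other 3 arrays. Clec7a read 6.76 in GF Card9-/- replicate 7 at day 0, the array with the next to lowest macrophage score of its label and the only one of day 0 with a high pancreatic score (10.5). Prkcd was highest at 13.17 in GF WT replicate 5 at day 0, the array with the lowest macrophage score of that day, and lowest at 11.68 in GF Card9-/- replicate 4 at day 7.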

How the results depend on the processing

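No partner was called at either day, and no probe for the difference between the days, under the alternatives run. Both Card9 probes of day 0 were called under every alternative, with A_66_P128849 between 3.098 (normexp) and 6.61 and A_66_P135237 between 1.28 and 3.89. The day 7 Card9 difference lay between 1.93 (normexp) and 5.73. Leaving out each array gave 3.91 to 5.73, the highest without GF WT replicate 1. The count of probes called at day 7 then ran from 0 to 1, the 1 being Card9 without that array, which was singled out by its Card9 value, so this is no test of Card9. At day 0 limma called 12 probes with the settings used, 27 with normexp, 22 with the authors' table, 22 with the well above background filter, 7 with the replicate block and 2769 at an unadjusted p, the last against 1511 at day 7. It also called 12 with 75th percentile scaling, 5 of them higher under the GF Card9-/- label, against 7 higher with the settings used. The labels do not say whether arrays with the same replicate number were paired. Deviations of same-numbered arrays correlated at -0.02 to 0.37 at day 0 and at 0.03 and 0.11 at day 7. This cannot settle it, since arrays with different numbers were not compared. The replicate block uses only shared numbers. It left out GF Card9-/- replicate 7 at day 0 and kept replicates 4 and 6 at day 7, and it changed no call of a member. It moved Clec7a to 0.15, Clec4n to -0.27 and Fcer1g to -0.11 at day 0, and Clec4n to 1.30, Clec7a to 1.19, Clec4d to 0.92, Fcer1g to 0.92, Prkcd to -0.11 and Malt1 to -0.00796 at day 7. Leaving out each array gave ranges of -0.42 to 0.15 for Clec7a, -0.83 to -0.27 for Clec4n, -0.92 to -0.30 for Clec4d, -0.59 to -0.09 for Fcer1g and -0.072 to 0.0169 for Prkcd at day 0. At day 7 they were 0.25 to 0.67 for Clec7a, 0.25 to 0.66 for Clec4n, -0.33 to 0.51 for Clec4d, -0.0583 to 0.44 for Fcer1g, 0.25 to 0.52 for Syk, -0.29 to 0.0105 for Prkcd, -0.29 to -0.10 for Bcl10 and -0.0524 to 0.21 for Malt1. The mean over a gene's probes gave 0.84 for Syk at day 7, and -0.40 for Clec7a and 0.04 for Bcl10 at day 0. Clec4d of day 0 shrank to -0.18 with normexp and to -0.05 with dim values raised. Without the 2 arrays of day 7 high in pancreatic genes, which was also chosen after seeing the data and leaves 2 arrays against 4, limma called 2 probes and no member. The differences were then 4.20 for Card9, -0.26 for Clec4d, 0.29 for Clec4n, 0.33 for Clec7a, 0.12 for Fcer1g, 0.06 for Syk, -0.38 for Prkcd, -0.30 for Bcl10 and 0.19 for Malt1. The scan session block and the fit without the slide of GF WT replicate 6 at day 0 were chosen after seeing the data and left the Card9 difference at 6.59 and 6.61. Partners moved more. Over all alternatives Clec4d of day 0 lay between -0.92 and -0.05 and Syk of day 0 between 0.09 and 0.21. With 75th percentile scaling, 7 partners at day 0 and 2 at day 7 passed against the macrophage score, beside 6 and 2.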
